A study of Rattus norvegicus with 2 samples.

Results

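The genes described here encode the enzymes that phosphorylate, trim and rebuild inositol phosphates downstream of the calcium-releasing messenger inositol trisphosphate (IP3). They were taken as a list of 9 genes: the IP3 3-kinases Itpka, Itpkb and Itpkc, the multikinase Ipmk, the phosphatases Inpp1, Impa1, Impa2 and Minpp1, and the inositol synthase Isyna1. All 9 were on the array, out of 14218 genes with at least 1 probe set of a single gene symbol, and they were read by 12 of 31099 probe sets. Expression was measured in astrocytes, supporting glial cells of the brain, grown from the hippocampus of Sprague-Dawley rats of normal genotype at embryonic day 18. The control culture was transfected with a vector for IRES2-RFP alone, and the 5ppase culture with 5ppase-IRES2-RFP, so both carried the red fluorescent protein and only the latter carried 5ppase. The series sets active calcium signalling (control) against its absence (5ppase). There was 1 array of total RNA per culture, so the differences are those of 2 arrays, without a replicate check or a p-value. That number of arrays limits how precise any of them can be. In bulk RNA of this kind fewer cells of a type and less RNA per cell cannot be told apart.

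IP3 is removed from the cytosol along 2 routes. A 5-phosphatase takes off a phosphate and ends the signal, whereas a 3-kinase adds a phosphate and makes inositol tetrakisphosphate, the entry to the more highly phosphorylated forms. Products of the phosphatase route are stripped to free inositol by lithium-sensitive phosphatases, and the inositol is built back into membrane phosphatidylinositol. What 5ppase abbreviates is not given in the labels. It is the usual short form of inositol polyphosphate 5-phosphatase, an enzyme that would draw on the same substrate as the 3-kinases. The labels do not say which phosphatase gene or species was used, so no probe set checks the label. Inpp5a, the rat type I enzyme, gave 993.9 in control and 1022.5 in 5ppase at its brighter probe set, and 10.4 and 133.6 at the other.

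The enzymes of inositol recycling and synthesis mostly gave moderate to bright signals on both arrays, and these lay close together. Signals are MAS5 intensities in arbitrary units. A signal was treated as measured above a floor of 62.0, the 40th percentile over the pooled signals. Comparison of a gene required signals over this floor in both cultures and a signal of at least 208, the 60th percentile, in 1 of them. By this rule 5 of the 9 members were compared: Ipmk, Inpp1, Impa1, Isyna1 and Minpp1. None of the 5 (0 of 5) was at least 1.5-fold apart, against 10.7% of the 8261 genes compared. At 2-fold the count was 0 of 5, against 2.92% of all compared genes. With so few genes, a count of 0 lies near that background and shows nothing particular to the list. The other 4 members, 3 of them IP3 3-kinases, were too dim for a comparison.

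**Figure D1:**
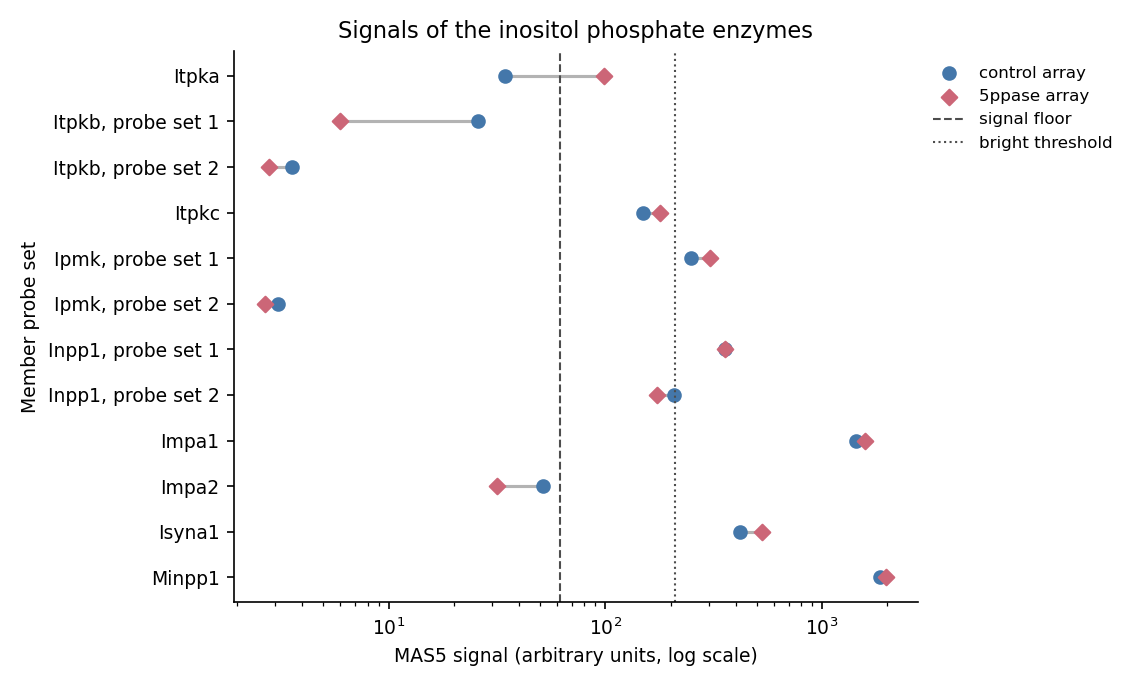
MAS5 signal (arbitrary units, log scale) of the 12 probe sets of the 9 members on the control array (circles) and the 5ppase array (diamonds), with the signal floor of 62.0 (dashed) and the bright threshold of 208 (dotted). The probe sets of Impa1 and Minpp1 lie far above the bright threshold on both arrays, whereas both probe sets of Itpkb and that of Impa2 lie under the floor on both.

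None of the 3 IP3 3-kinases reached the bright threshold. Itpka, the brain-enriched form that also binds actin, gave 34.3 in control and 98.2 in 5ppase at its single probe set. The 5ppase array was thus above the floor and the control array under it. Itpkb, a form known from lymphocyte signalling, gave 25.8 and 6.0 at its brighter probe set and 3.6 and 2.8 at the other. All 4 values were under the floor, so the files give no usable level or direction for Itpkb. Itpkc, the form found in most tissues, gave 148.6 and 178.6. Both signals were over the floor and under the bright threshold, with a log2 ratio of 0.27 in favour of 5ppase (here and below 5ppase over control).

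Dim probe sets scattered widely between the arrays. Over the 12863 probe sets whose geometric mean signal was at or under the floor, the log2 ratio taken without a floor had an SD of 1.85, and 53.8% of them were at least 2-fold apart. Itpka had such a ratio of 1.52 and the brighter Itpkb probe set one of -2.10, both of the size common among these probe sets. Between the floor and the bright threshold, where Itpkc lies, the SD over 5849 probe sets was 0.66, larger than its log2 ratio of 0.27. At or over the bright threshold the SD over 12387 probe sets was 0.38. These SDs are taken across different probe sets of the same 2 arrays and hold true differences as well as noise.

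Ipmk, the multikinase that phosphorylates inositol tris- and tetrakisphosphates further and also makes a phosphoinositide in the nucleus, was the only kinase bright enough to be compared. It gave 248.5 in control and 305.4 in 5ppase, a log2 ratio of 0.30 or 1.23-fold higher. Of all compared genes 66.6% had a smaller absolute log2 ratio. Its other probe set gave 3.1 and 2.7, under the floor on both arrays, so the higher signal rests on a single probe set.

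Isyna1 had the largest absolute log2 ratio of the 5 compared members. It encodes the synthase that turns glucose 6-phosphate into inositol phosphate, the first step of new inositol synthesis. Its single probe set gave 418.6 in control and 527.3 in 5ppase, a log2 ratio of 0.33 or 1.26-fold higher. Of all compared genes 70.9% had a smaller absolute ratio, so this value was not unusual on these arrays. Compared genes outside the list were ranked by Euclidean distance to Isyna1 on the log2 scale over both arrays. Genes whose symbol is only a LOC or RGD number were left out. The nearest were Eogt (415.9 and 530.1), Wdr11 (416.6 and 532.6) and Eif4ebp3 (425.7 and 522.0). With 2 arrays such likeness says only that the signals are alike.

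Among the recycling phosphatases, Impa1, the inositol monophosphatase that releases free inositol and is inhibited by lithium, gave 1425.8 in control and 1577.7 in 5ppase. Its log2 ratio was 0.15, 1.11-fold higher. Inpp1, the lithium-sensitive enzyme that removes the 1-phosphate from inositol bisphosphate just upstream of it, gave 358.1 and 357.0 at its brighter probe set. This log2 ratio of -0.0045 was among the smallest on the arrays, with 1.26% of compared genes closer to 0. Its other probe set gave 206.4 and 173.3, just short of the bright threshold, with a log2 ratio of -0.25. Neither probe set of Inpp1 was higher in 5ppase as scaled here. Impa2, the second inositol monophosphatase, gave 51.5 and 31.5, neither of them over the floor, so of the 2 monophosphatase members only Impa1 could be compared.

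Minpp1, which removes phosphates from the highly phosphorylated inositol phosphates, gave 1842.5 in control and 1980.4 in 5ppase. Its log2 ratio was 0.10, 1.07-fold higher, and 27.8% of compared genes had a smaller absolute ratio. The 5 compared members had a median log2 ratio of 0.15, beside -0.017 over all compared genes. Of the 5, 4 had a positive ratio, where 47.9% of all compared genes did. The exception, Inpp1, turned positive under quantile normalization (0.025) and after removal of a loess trend (0.032). No array was repeated, so the only scatter at hand was that between 2 probe sets of the same gene on the same arrays. Over 1492 genes with exactly 2 compared probe sets it had an SD of 0.26. This is the SD of the differences in log2 ratio, divided by the square root of 2. It holds what differs between probe sets, but neither noise shared by a whole array nor differences between cultures. The ratios of Isyna1 and Ipmk were slightly over this SD and those of Impa1, Minpp1 and Inpp1 under it.

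**Figure D2:**
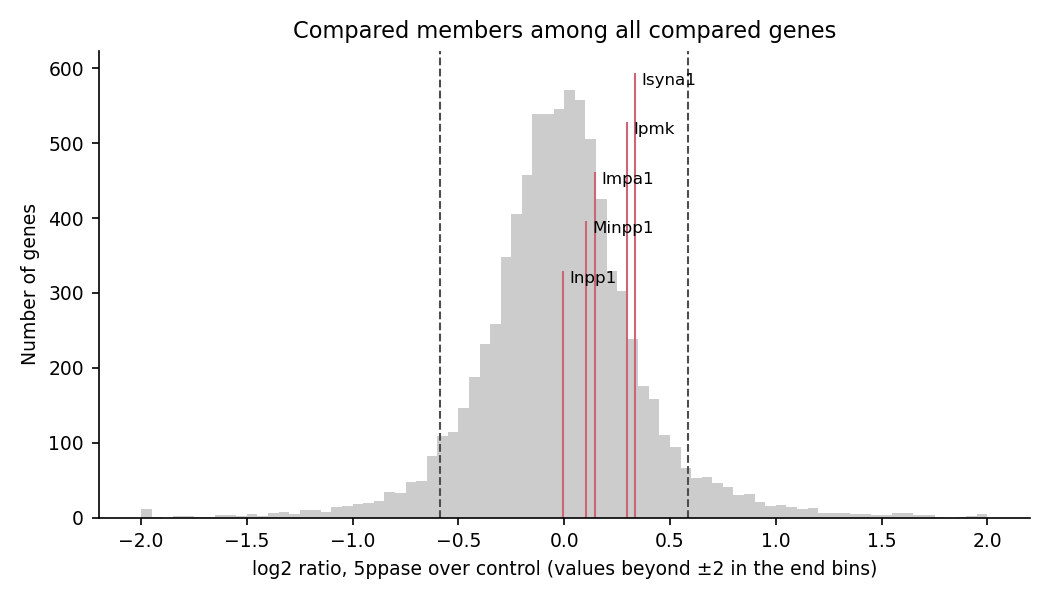
Histogram of the log2 ratio, 5ppase over control, of the 8261 compared genes (grey, number of genes per bin, values beyond the axis limits collected in the end bins), with the 5 compared members marked by vertical lines whose heights only separate the labels. All 5 lie between the dashed lines at 1.5-fold either way, from -0.0045 (Inpp1) to 0.33 (Isyna1).

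The wider inositol phosphate pathway was read from 4 further lists of 46 genes in all, of which 43 were on the array and 29 were compared. At the 1.5-fold threshold 3 of the 29 were higher in 5ppase, 1 was lower and 25 lay within it, near the background of 10.7% given above. No gene of these lists (0 of 29) was 2-fold apart, again beside 2.92% of all compared genes.

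The 5- and 4-phosphatases, which act on IP3, its products and phosphoinositides, had 7 of 12 genes compared and a median log2 ratio of 0.066. Inpp5e, a phosphoinositide 5-phosphatase of the primary cilium, gave 231.5 in control and 116.6 in 5ppase, a log2 ratio of -0.99. Only its control signal reached the bright threshold, so it was compared through the array where it was higher. With the floor at the 60th percentile Inpp5e was not compared. Inpp5b, a 5-phosphatase related to Ocrl, gave 412.4 and 618.7, a log2 ratio of 0.59. It lay at the 1.5-fold threshold itself and fell just short of it when the arrays were scaled to a common median or a pseudocount replaced the floor. Each of the 2 genes has a single probe set.

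Of the 11 enzymes listed for higher inositol phosphates and pyrophosphates, 6 were compared, and these had slightly lower signals in 5ppase. All 6 had a negative log2 ratio, where 52.1% of all compared genes did, with a median of -0.21 and a range from -0.47 to -0.14, and none was 1.5-fold apart. Nudt4, a hydrolase of inositol pyrophosphates, gave 4238.8 and 3070.1, a log2 ratio of -0.47, with -0.40 at its next probe set (1134.2 and 859.2). The inositol hexakisphosphate kinase Ip6k1 gave 1266.7 and 1148.6, a log2 ratio of -0.14. The other compared genes were Itpk1 (-0.21), Ip6k2 (-0.31), Ppip5k1 (-0.18) and Nudt3 (-0.21). Itpk1 (237 and 204.8) and Ppip5k1 (211.4 and 186.6) reached the bright threshold in control only. The rule for comparison thus favoured their negative sign, and the run of 6 is not independent of it. The second probe sets of Ip6k2 (-0.60) and Nudt3 (-0.47) had the sign of the first, whereas that of Itpk1 gave 22.6 and 95. All 6 ratios remained negative under each scaling, with medians from -0.24 to -0.18. Ippk, which makes inositol hexakisphosphate, was too dim to be compared (98.1 and 165.1) and its values lay the other way. With the pseudocount, which admits 8 genes of the list, 2 of them were positive.

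Genes of inositol transport and breakdown and related phosphatases had 4 of 6 compared, with a median log2 ratio of 0.013. Slc2a13, the proton-coupled inositol transporter, gave 429.3 in control and 786.7 in 5ppase, a log2 ratio of 0.87 or 1.83-fold higher. Its second probe set, at 87.4 and 160.6, gave 1.84-fold but was too dim to be compared. Of the probe sets between the floor and the bright threshold 32.2% were at least 1.5-fold apart. The sodium-coupled inositol transporter Slc5a3 gave 410.7 and 388.4, a log2 ratio of -0.081, and Miox, the first enzyme of inositol breakdown, did not reach the floor (32.7 and 9.7). The list also holds 2 related phosphatases, Bpnt1 (1444.7 and 1554.8, log2 ratio 0.11) and Bpnt2 (4580.2 and 4167.6, -0.14). At their brightest probe sets Slc2a13 was the only compared gene of the list past 1.5-fold, though a dimmer probe set of Bpnt2 gave 192.1 and 344.1, 1.79-fold higher.

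Phosphatidylinositol resynthesis, which uses the inositol that Impa1 and Isyna1 provide, had 12 of 17 genes compared and a median log2 ratio of 0.051, with 7 positive and 5 negative. Pip4k2a, a kinase that makes phosphatidylinositol bisphosphate, gave 258.8 and 431.1, a log2 ratio of 0.74. Its second probe set, too dim to be compared, gave 109.5 and 199.1 (0.86). The other 11 genes lay within 1.5-fold. Among them, Cdipt, the phosphatidylinositol synthase that consumes free inositol, gave 3448.7 and 4377.2, a log2 ratio of 0.34. Cdipt was chosen after its values were seen.

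**Figure D3:**
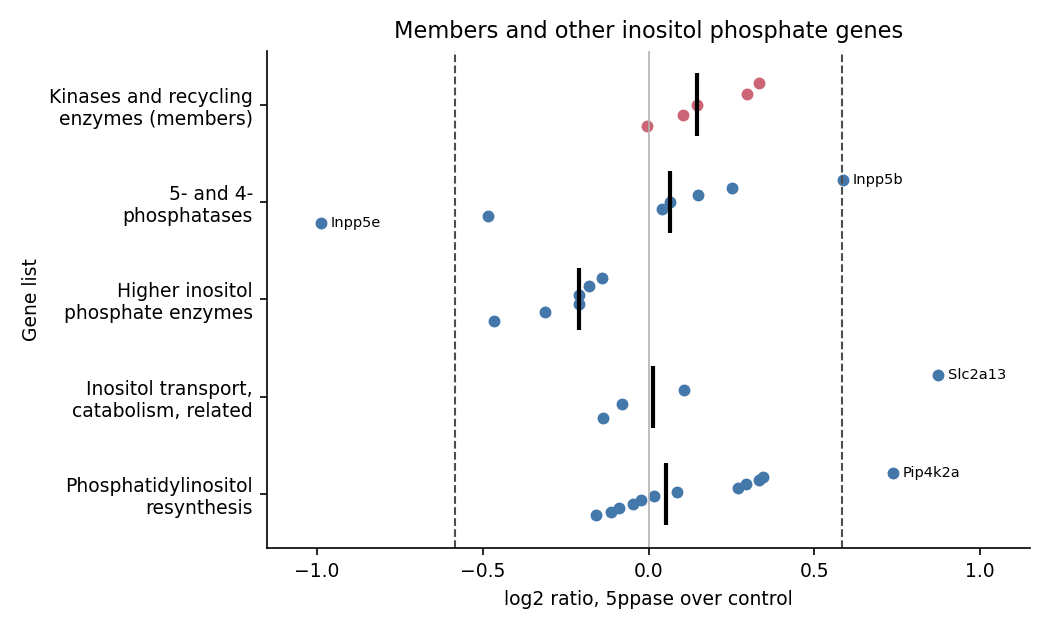
log2 ratio, 5ppase over control, of the compared members and of the compared genes in 4 other inositol phosphate lists (1 point per gene at its brightest probe set, black bar at the list median, dashed lines at 1.5-fold either way, named points past them). The members lie between -0.0045 and 0.33, all 6 genes of the higher inositol phosphate list lie under 0, and Inpp5b, Inpp5e, Slc2a13 and Pip4k2a are the points past 1.5-fold.

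The promoters of the members were searched for the cyclic AMP response element (CRE), which binds CREB, a transcription factor activated by calcium and cyclic AMP. RefSeq promoter sequences (GRCr8) were matched for 7 members, all but Itpka and the compared member Impa1, which were not searched. The 250 bases before the transcription start were read on both strands. For each member only its first listed promoter was read, whereas the shares over all promoters count every listed promoter. The full element, TGACGTCA, was found in 0 of the 7 and in 1.59% of 33469 rat promoters. Its 5-base core, TGACG, which the full element contains, was found in 2 of the 7 and in 18.2% of all promoters. The stretches around the 2 cores are shown because they are the only matches among the members, each 5′ to 3′ on the strand of its gene with the core, or its reverse complement, in capitals.
Itpkc, chr1:91650238-91650292, minus strand, core beginning 85 bases before the start: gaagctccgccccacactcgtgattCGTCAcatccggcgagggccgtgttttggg
Minpp1, chr1:239767529-239767583, plus strand, core beginning 223 bases before the start: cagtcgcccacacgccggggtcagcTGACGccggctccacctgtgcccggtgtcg
Itpkc (148.6 and 178.6) and Minpp1 (1842.5 and 1980.4) had log2 ratios of 0.27 and 0.10, and the compared members that lack the core in this window, Inpp1, Ipmk and Isyna1, had -0.0045, 0.30 and 0.33. A match of letters is a description and not a site of binding.

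Markers of the cell types that a brain culture can hold differed between the arrays, in both directions. Each list is given by its genes past 1.5-fold, to be read beside the 10.7% of all compared genes, and by its summed signal. Of 8 compared astrocyte markers 6 were at least 1.5-fold lower in 5ppase and 0 higher, each at its brightest probe set. The 11 markers on the array summed to 48310 in control and 27950 in 5ppase. Dimmer probe sets of Glul (-0.52 and -0.37) and the second of Slc1a3 (-0.13) were lower by less than 1.5-fold. The second probe set of Gja1 was higher (121.1 and 249.2). Aqp4 (432.3 and 25.1) was under the floor in 5ppase and so not compared. Gfap gave 17525 and 7407.8 and S100b gave 3483.2 and 3611.0, while the glutamate transporter Slc1a2 stayed under the floor (24.1 and 25.7). Of 5 compared neuron markers 2 were higher and 1 was lower, and the median log2 ratio was -0.49. Tubb3 (87.9 and 290.2) and Stmn2 (3766 and 11066) were the higher ones and Gad1 (998.1 and 422.2) the lower. Tubb3 reached the bright threshold in 5ppase only, so the rule for comparison favoured its positive sign. Its dimmer probe set gave 20.1 and 47.7, neither of them over the floor. Of the 12 neuron markers, 5 were under the floor in both cultures. The sum over the 12, 10465 and 15932, turned to 6699 and 4866 without Stmn2. Of 8 compared fibroblast and meningeal markers 3 were lower and 1 was higher. Mgp (1901.7 and 198.7), Igfbp5 (2218 and 530.1) and Pdgfra (1018.2 and 644.4) were lower and Thy1 (3311.3 and 6032.5) higher, whereas Col1a1 (32792 and 32415) and Col1a2 (28973 and 23202) lay within 1.5-fold. Collagens make up most of that list's sum of 116686 and 105004. Oligodendrocyte lineage markers summed to 2924 and 1660, but to 1553 and 1613 without Cldn11 (1370.9 and 47.2). Cspg4 was higher in 5ppase (261.5 and 629.5), and 7 of the 11 markers, Mog (8.2 and 9.8) among them, were under the floor in both. Mbp gave 48.4 and 70.9. Microglial markers summed to 1350 and 2684, nearly all of it Tmem119 (1078.1 and 2272.6), and to 272 and 411 without it. Of the 12, 8 were under the floor in both cultures, and Aif1 (56.1 and 71.5) and Cd68 (15.4 and 67.1) were dim. Endothelial markers summed to 257 and 460, with 7 of 9 under the floor in both, Pecam1 (8.7 and 22.5) and Cldn5 (22.9 and 30.9) among them. The part of these differences in the ratios of Itpka, which neurons express strongly, and of the other members was not tested.

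Across the scalings and signal rules tried, the compared members kept to a narrow range. Isyna1 ran from 0.30 to 0.37, Ipmk from 0.27 to 0.33, Impa1 from 0.12 to 0.16, Minpp1 from 0.073 to 0.13 and Inpp1 from -0.13 to 0.032 on the log2 scale. None of these 41 alternative values reached 1.5-fold, but many of them could hardly differ from the reported ratios. The deposited values, the other floors and leaving out suffixed probe sets gave the same ratios, or nearly so, for the members they kept. So did the mean of probe sets for members with a single probe set. When a pseudocount replaced the floor and the filter, which admits all 9 members, Itpka (1.36), Itpkb (-1.38) and Impa2 (-0.61) passed it, in a setting where 26.6% of all genes did.

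**Figure D4:**
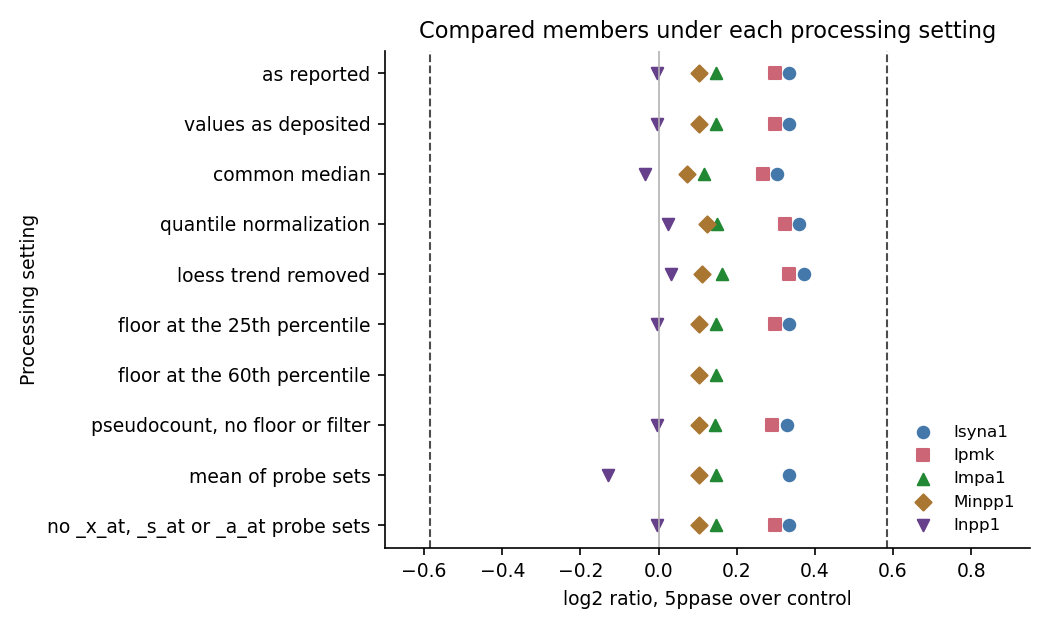
log2 ratio, 5ppase over control, of the 5 compared members under each processing setting that left a member to compare (points, 1 shape per gene, dashed lines at 1.5-fold either way, missing points where the gene was not compared). Isyna1 and Ipmk lie to the right of the others wherever they are shown, and Inpp1 lies between -0.13 and 0.032.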

How the data were processed

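Single-colour Affymetrix signals from 1 control and 1 5ppase array were used, grouped by title. The deposited values are linear intensity values per probe set, which the authors computed by MAS5, according to the submitters' processing notes (version and settings: not given in the sources used here). Both deposited columns had a trimmed mean of 500.2 (2% removed at each end), so rescaling to a common trimmed mean moved neither by more than rounding. Of 31099 probe sets 20832 carried 1 gene symbol in a platform annotation, which can be old, 436 several and 9831 were not listed. A gene was represented by its brightest probe set; members were shown at every probe set. Signals under the floor were raised to it before log2. No test was run with 1 array per group. The members and lists were chosen with earlier results of these data known. Named were all members, the list genes past 1.5-fold or else the 2 brightest, and the first 2 markers per list. So were the 3 genes nearest to the member with the largest ratio, with LOC and RGD numbers left out. Inpp5a and any further list or marker gene were added after their values were seen. Calculations used Python 3.11.15, numpy 2.4.6, pandas 2.3.3 and statsmodels 0.14.6.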

Additional observations from a re-analysis of the deposited data

How the results depend on the processing

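The count of members at least 1.5-fold apart was 0 under 9 alternatives: no rescaling, scaling to a common median, quantile normalization, loess (span 0.3), floors at the 25th or 60th percentile, the mean of probe sets, probe sets without the _x_at, _s_at or _a_at suffix, and a 2-fold threshold. Several of these counts were fixed in advance. The 2-fold threshold could only give 0. No rescaling, the other floors and the suffix rule left the ratios of the members they kept unchanged or nearly so. The floor at the 60th percentile was paired with a bright threshold raised to the 75th percentile, here and wherever that floor is named. Together these 2 thresholds left 2 members to compare, and the mean of probe sets left 4. With a pseudocount of 6.4 and no floor or filter the count was 3 of 9, all dim genes that the floor had kept out. The second brightest probe set left no member to compare, so it gave no value. The median log2 ratio of the members lay between 0.12 and 0.16 wherever it could be had. The 4 pathway lists held 4 genes past 1.5-fold as reported, 2 with the floor at the 60th percentile (19 genes compared), 8 with the pseudocount (43 compared), 7 with the mean of probe sets (27 compared), 1 with the second brightest probe set (7 compared) and 0 at 2-fold. No paired analysis was possible because each group has 1 array. Low signal limits Itpka, Itpkb and Impa2, and the deposited table holds no detection calls.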
